A study of Mus musculus with 12 samples.

Results

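The genes described here encode the drug- and steroid-metabolising enzymes and the serine protease inhibitors that lie in large tandem clusters of the mouse genome. They are the cytochrome P450 genes (Cyp followed by a digit), the UDP-glucuronosyltransferases (Ugt1, Ugt2 and Ugt3), the sulfotransferases (Sult) and the serpins (Serpin). Autosomal regions of the mark H3K9me2 were assigned by the gene symbol they overlapped, or otherwise by the symbol of the gene they were listed with, and their reads were summed per gene. The FAD versus WT table held 163 such regions in 90 genes, of 12544 autosomal regions with a gene symbol in 4227 genes. The FAD-BIX versus FAD table held 196 regions in 105 genes, of 16331 regions in 4773 genes. Of the 114 genes found in either table, 81 were in both, 9 only in the first and 24 only in the second. The overlapping Ugt1a genes, which share their last exons, were counted as 1 locus.

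H3K9me2 was measured by ChIP-seq in prefrontal cortex of C57BL/6 mice aged 5 to 6 months. The 3 groups, with 2 mice each, were wild-type mice (WT), mice of a familial Alzheimer's disease model (FAD) and FAD mice treated with BIX01294, which inhibits the methyltransferases EHMT1 and EHMT2 (FAD-BIX). Every mouse gave 1 ChIP and 1 input library, so there were 12 libraries. The transgenes of the FAD mice, the cells that express them, the vehicle of the control groups, and the dose and length of the BIX01294 treatment are not given in the sources used here. The study asks, per its title and design text, how this mark differs in FAD mice and when EHMT1/2 is inhibited. The tissue was bulk, so fewer cells carrying the mark and less of the mark per cell cannot be told apart.

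H3K9me2 is written mainly by EHMT1 and EHMT2 and marks silent chromatin, often in broad domains over genes that a tissue does not use. Cytochrome P450 enzymes oxidise drugs, steroids, retinoids and fatty acids, and the Ugt and Sult enzymes then attach glucuronic acid or sulfate so that the products can be excreted. Serpins trap proteases such as elastase, thrombin and granzymes. Most genes of these clusters are used mainly in liver, gut, kidney or skin. A few members have known roles in brain, among them Cyp7b1, a hydroxylase of oxysterols and neurosteroids, Cyp19a1, which is aromatase, and Serpini1, which encodes neuroserpin.

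Library totals were 20.45 M to 26.58 M reads for the ChIP and 13.92 M to 23.76 M for the input libraries. The libraries labelled FAD 1 went against their label at 1 gene. At Thy1, which encodes a glycoprotein of neurons and whose promoter drives many transgenes, the FAD-BIX versus FAD table held 366, 403 and 203 RPM (reads scaled to the library total) in the inputs of FAD 2, FAD-BIX 1 and FAD-BIX 2, and 3.97 in the input labelled FAD 1. In the FAD versus WT table, where other Thy1 sequence was listed, the input labelled FAD 1 held 0.63 RPM, near the 0.08 and 0.69 of WT and far from the 24.1 of FAD 2. The ChIP level was 0.20 and 0.08 RPM in WT, 40.3 in FAD 2 and 0.16 in the library labelled FAD 1. The label of that mouse is thus in doubt, and wherever FAD is given as 2 libraries below, 1 of them is the library labelled FAD 1. The ChIP library labelled FAD 1 also held 60.6 RPM over the 4 of 14 heart muscle marker genes that had a region in the FAD versus WT table, where the other ChIP libraries held 3.42 to 7.26 and the inputs 4.10 to 6.56. Of 18 liver marker genes only Apob and Ttr had a region in either table, and together they held 1.16 to 3.03 RPM in the ChIP libraries of each table, so no library stood apart by liver genes. The folds of the genes named below for their p are therefore given with and without the ChIP library labelled FAD 1, and its part in the other results was not tested.

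With the calls of all ChIP libraries of a table pooled, the clusters held more called regions per length of sequence than the autosomes as a whole. Joining family genes of the RefSeq annotation that lie within 200 kb of each other gave 15 clusters of at least 3 genes, which span 9.41 Mb. They held 204 regions in the FAD versus WT table, or 21.7 per Mb against 13.7 over the autosomes, and 13 of the 15 clusters were above that average. In the FAD-BIX versus FAD table they held 239 regions, or 25.4 per Mb against 17.7, and 9 of 15 were above. Both tables draw on the same FAD libraries. FAD 2 called 150 of the 204 cluster regions (73.5%, against 64.6% of all autosomal regions). The shares of WT 1, WT 2 and the library labelled FAD 1 were 9.80%, 12.7% and 7.84%, against 17.4%, 12.2% and 11.4%. In the second table FAD 2 called 152 of the 239 (63.6%, against 50.2%). FAD-BIX 1 and 2 called 14.6% and 21.3%, against 22.4% and 25.9%, and the library labelled FAD 1 6.69%, against 8.84%. Densities per library were not computed. These densities are descriptions of 1 genome and carry no test.

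**Figure D1:**
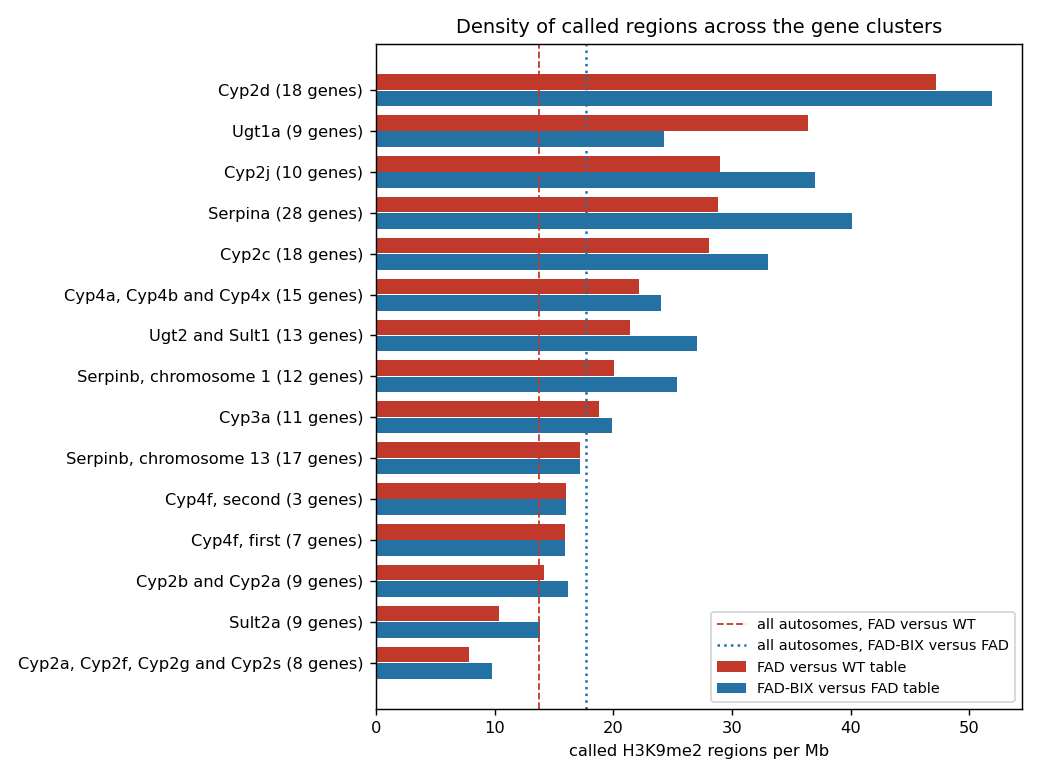
Called H3K9me2 regions per Mb (horizontal axis) in the 15 family clusters, with the number of RefSeq genes in each. Red bars are the FAD versus WT table and blue bars the FAD-BIX versus FAD table. The dashed line is the autosomal average of 13.7 in the first and the dotted line that of 17.7 in the second table. The Cyp2d cluster is highest in both, at 47.2 and 51.9, and the Cyp2a, Cyp2f, Cyp2g and Cyp2s cluster is lowest, at 7.80 and 9.75.

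The density differed widely between families. The Cyp2d cluster on chromosome 15 (82370527 to 82794452 in GRCm38), whose human counterpart holds the debrisoquine hydroxylase gene, spans 18 RefSeq genes and had 20 regions in the first table, or 3.44 times the autosomal density. Of these regions 12 carried a member symbol and 8 carried none. The Ugt1a locus on chromosome 1 followed with 36.5 regions per Mb. The Cyp2j cluster of arachidonic acid epoxygenases (29.0 per Mb), the Serpina cluster of alpha-1-antitrypsin and antichymotrypsin genes on chromosome 12 (28.8 per Mb) and the Cyp2c cluster on chromosome 19 (28.1 per Mb) lay close together. The Sult2a cluster of hydroxysteroid sulfotransferases, with 10.4 per Mb, and the Cyp2a, Cyp2f, Cyp2g and Cyp2s cluster were below the autosomal average in both tables. The Cyp2c cluster held the most regions of any cluster, 34 and 40. Of all cluster regions, 76 and 89 carried no gene symbol in the tables and so are not among the members.

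The excess of regions pooled over libraries was also seen gene by gene, and was not split by library. Of 203 protein-coding genes of these families, 62 (30.5%) held a region within the gene in the FAD versus WT table, against 12.5% of all 20665 protein-coding autosomal genes. In the FAD-BIX versus FAD table the shares were 36.0% and 14.5%. The median gene length was 18.7 kb in the families and 17.5 kb over all genes. Without the 9 nested Ugt1a genes, which all share the same regions, the family shares were 27.3% and 33.0%. Where the reads of near-identical copies were placed (the Cyp2c, Cyp2d, Cyp3a, Serpina1, Serpinb and Sult2a genes in particular) is uncertain, because the handling of reads with several matches is not known from the sources used here.

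Member regions were only slightly narrower than other regions with a gene symbol, and lay closer to transcription starts. Their median width was 315 bp in the first and 304 bp in the second table, against 326 and 322 bp for all autosomal regions with a symbol. In the first table, 25 of 163 (15.3%) were centred within 2 kb of a start, against 5.49% of all autosomal regions with a gene symbol. In the second table, 27 of 196 (13.8%) were, against 5.20%. The median distance to a start was 11761 bp for the members and 36847 bp for all regions with a symbol in the first table. There, 50.3% of member regions were intergenic, 43.6% intronic, 4.29% exonic and 1.84% in untranslated regions. For all regions with a symbol these shares were 42.3%, 53.3%, 3.28% and 1.12%. The clusters are dense in genes, and gene density was not adjusted for.

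Of the family promoters in the RefSeq table used, which lacks some members such as Cyp2d12, 3 overlapped a called region, taken as windows of 300 bases around a start. They belong to Serpina1d, 1 of the alpha-1-antitrypsin genes, Serpina3a, of the antichymotrypsin group, and Cyp2d11. The 250 bases before the start of Serpina1d (chr12:103773634-103773883, minus strand) and of Cyp2d11 (chr15:82394023-82394272, minus strand) are shown, from RefSeq on GRCm38.p6, because here the mark touches the promoter itself. Capitals are the bases inside the called region, 116 of them in Serpina1d and 52 in Cyp2d11.
Serpina1d: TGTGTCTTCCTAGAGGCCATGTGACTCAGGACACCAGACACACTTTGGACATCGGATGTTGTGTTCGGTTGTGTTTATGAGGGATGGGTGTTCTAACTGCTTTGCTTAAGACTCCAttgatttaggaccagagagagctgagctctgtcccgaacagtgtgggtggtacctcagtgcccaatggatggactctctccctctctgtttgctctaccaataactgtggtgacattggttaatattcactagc
Cyp2d11: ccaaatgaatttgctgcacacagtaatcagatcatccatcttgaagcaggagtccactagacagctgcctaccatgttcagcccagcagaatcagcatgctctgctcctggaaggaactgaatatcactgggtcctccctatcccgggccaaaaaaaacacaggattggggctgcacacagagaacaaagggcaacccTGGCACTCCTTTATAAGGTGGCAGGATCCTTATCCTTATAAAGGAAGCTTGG
The Serpina1d stretch holds GTTAAT, the core of sites bound by the liver factor HNF1, with its first base 16 bases before the start and outside the called region. The Cyp2d11 stretch holds TATAAA with its first base 16 bases before the start, and its reverse complement farther upstream, both inside the called region.

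At the Serpina1d promoter region (chromosome 12, 103773768 to 103774043) the ChIP libraries held 3 and 16 reads in WT, 17 in the library labelled FAD 1 with 18 in FAD 2, and 8 and 13 in FAD-BIX. It was called in FAD 2 alone. At the Serpina3a region, which covers the first bases of the transcript (104112720 to 104112961), the reads were 11 and 9 in WT, 22 and 12 in FAD, and 4 and 5 in FAD-BIX. It was called in the library labelled FAD 1 alone. The Cyp2d11 region (82393676 to 82394074) was listed only in the second table, with 11 and 19 reads in FAD and 5 and 19 in FAD-BIX, and was called in FAD-BIX 2 alone. The inputs held 0 to 6 reads at each. These reads are not scaled to depth. Serpina3a had only this region in the first table, and its TMM-scaled levels in WT and FAD overlapped. The reads are few: the median member region held 10 in the library labelled FAD 1, for which counting error alone allows 4.80 to 18.4 (exact 95% Poisson interval).

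The family promoters share a base composition that the choice of members did not use. The ratio of observed to expected CpG had a median of 0.17 over 188 windows of 167 family genes, against 0.39 over 31396 windows of autosomal genes. It was under 0.4 in 88.8% of family windows and in 51.0% of all. TATAAA, searched like every motif on both strands, was found in 32.4% of family windows and 13.6% of all. For liver factors, 3 motifs were searched by their core letters. GTTAAT (the HNF1 half-site) was in 18.1% against 7.12%, CAAAGTCCA (HNF4) in 6.38% against 0.49%, and TGTTTAC (FOXA) in 7.98% against 3.71%. A match of letters shows no binding. Many of these genes are tandem copies, and some have several windows, so the windows are not independent of each other. This was not adjusted for. The window sequences were not compared with the mark, since so few windows held a region.

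Most member regions were called in a single library, and mostly in FAD 2. Of those listed for FAD versus WT, 97.5% were called in 1 of the 4 ChIP libraries, against 94.97% of all autosomal regions with a symbol. FAD 2 called 113 of 163 (69.3%, against 63.1% of all with a symbol), and the library labelled FAD 1 called 11 (6.7%, against 12.0%). WT 1 called 17 (10.4%, against 19.0%) and WT 2 called 26 (15.95%, against 11.7%). In the FAD-BIX versus FAD table FAD 2 called 116 of 196 member regions (59.2%, against 48.8%), and the library labelled FAD 1 called 11 (5.6%, against 9.2%). FAD-BIX 1 called 35 (17.9%, against 22.02%) and FAD-BIX 2 called 46 (23.5%, against 27.1%).

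**Figure D2:**
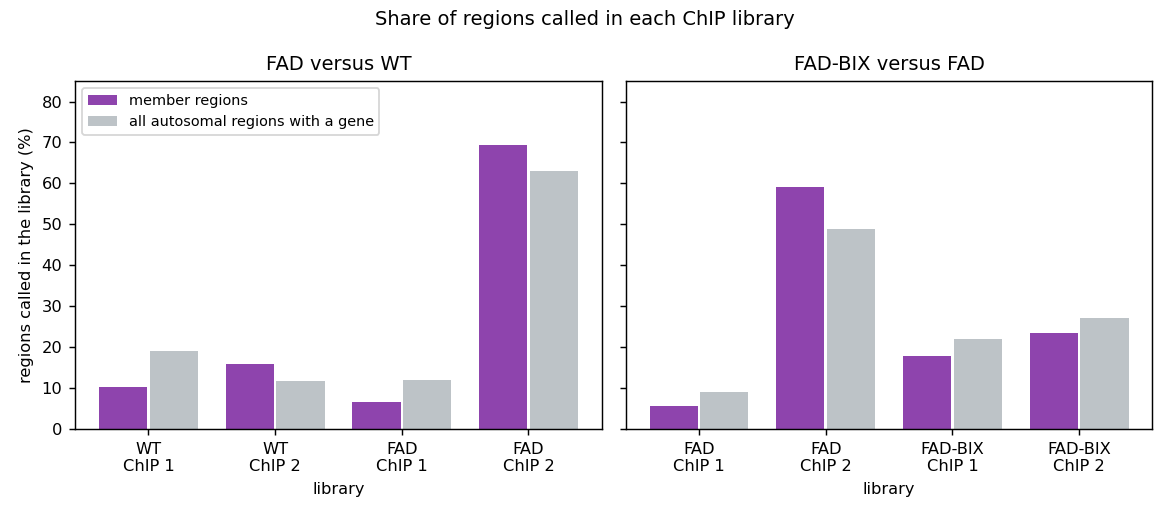
Share of regions called in each ChIP library (vertical axis, percent). Purple bars are member regions and grey bars all autosomal regions with a gene symbol, for the FAD versus WT table (left) and the FAD-BIX versus FAD table (right). FAD ChIP 2 called 69.3% and 59.2% of the member regions, more than the other libraries of each table.

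Few regions were called in more than 1 library. The first table had 4, all called in 2 libraries. An intron of Ugt3a1 (chr15:9311474-9311855), which encodes an N-acetylglucosaminyl conjugating enzyme, held 20 and 23 reads in WT and 24 and 27 in FAD. An intron of Cyp2c54 held 23 and 25 in WT and 18 and 31 in FAD. The region upstream of Cyp3a57 (chr5:145322325-145322917) held 18 and 31 in WT and 36 and 32 in FAD. A Cyp2c55 intron held 14 and 12 in WT and 28 and 37 in FAD. These reads are not scaled to depth. Cyp3a57 and Cyp2c54 had no other region in this table, so their TMM-scaled levels describe these regions. The levels overlapped in Cyp3a57, at 6.88 and 7.49 log2 CPM in WT and 7.72 and 6.93 in FAD. In Cyp2c54 both libraries labelled FAD were below both WT libraries. The second table had 11 such regions, and only the one in Cyp4f13, a fatty acid hydroxylase gene, was called in 3 libraries, with 10 and 40 reads in FAD and 29 and 27 in FAD-BIX. The widest member region, 1133 bp in an intron of Sult2a1, held 25 and 44 reads in WT, 19 and 68 in FAD and 31 and 21 in FAD-BIX.

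Summed over all member regions, the level in FAD 2 was above that of every other ChIP library. In the FAD versus WT table it was 171 RPM in FAD 2, 87.7 in the library labelled FAD 1 against 74.4 and 97.9 in WT 1 and 2. The inputs held 43.9 and 47.8 in WT and 41.0 and 33.1 in FAD. As a share of the reads in all autosomal regions with a symbol, the members took 1.15% and 1.33% in FAD and 1.04% and 1.33% in WT. The groups overlapped in that share, and the inputs gave 1.26% to 1.41%.

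The choice of regions bears on these sums, because a region is in a table only where some library called it. Over the 109 member regions called in FAD 2 alone, the level was 141 RPM in FAD 2, 58.3 in the library labelled FAD 1 against 46.9 and 61.1 in WT. Over the 50 member regions not called in FAD 2 it was 23.8 in FAD 2, 25.1 in the library labelled FAD 1 against 24.4 and 33.4 in WT. Since the calls of FAD 2 come from its own reads, this split fixes the direction of both values and they are a description only. In the second table the 80 member regions not called in FAD 2 held 34.8 and 38.1 RPM in FAD and 45.9 and 48.4 in FAD-BIX. Of these, 29 had been called in FAD-BIX 1 alone and 41 in FAD-BIX 2 alone. The choice of regions favours FAD-BIX here, and these values too are a description only.

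At the 115 member regions that had the same coordinates in both tables, in 73 genes, the 3 groups could be set side by side. The ChIP level was 51.4 and 65.1 RPM in WT, 67.5 in the library labelled FAD 1 with 145 in FAD 2, and 61.8 and 58.1 in FAD-BIX. Inputs were 35.5 and 40.7 in WT, 32.5 and 23.9 in FAD, and 38.3 and 28.5 in FAD-BIX. All autosomal regions with a symbol in both tables also had their highest level in FAD 2 and the next in the library labelled FAD 1, at 3674 and 4123 RPM in WT, 5013 and 9456 in FAD, and 4366 and 4001 in FAD-BIX. The members' share of those reads was 1.35% to 1.58% in the ChIP libraries and 1.49% to 1.84% in the inputs. Of these member regions, 115 of 115 had been called in a library labelled FAD.

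**Figure D3:**
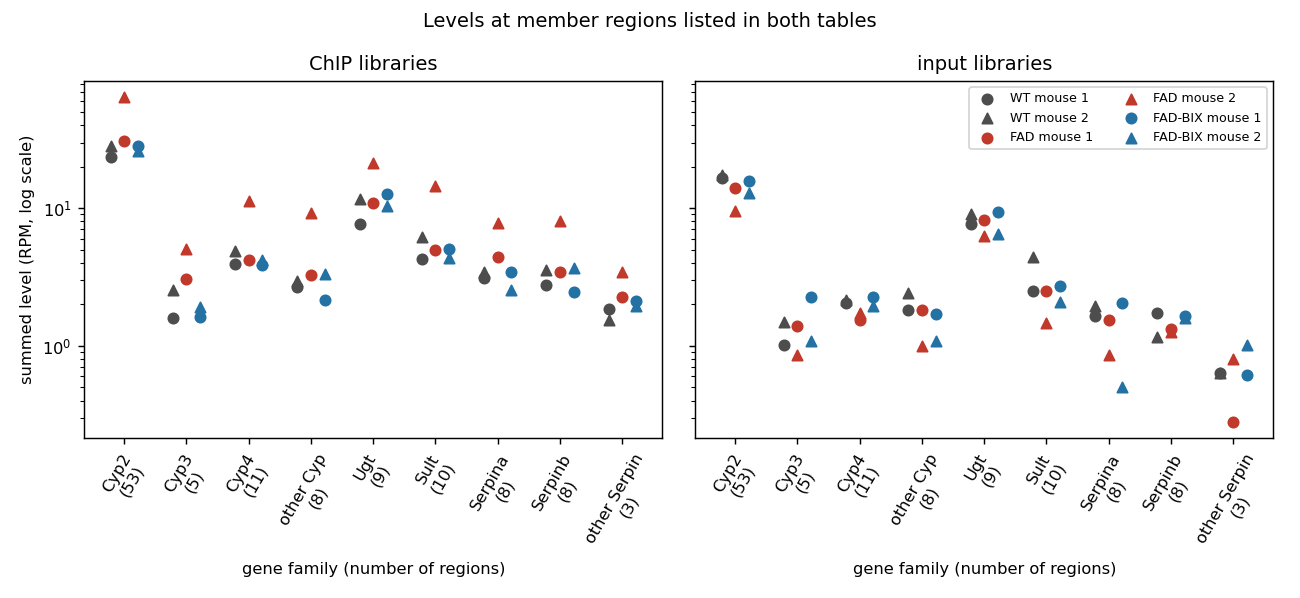
Summed RPM (vertical axis, log scale) at the member regions listed in both tables, by gene family with its number of regions. Grey points are WT, red FAD and blue FAD-BIX, with circles for mouse 1 and triangles for mouse 2 of each group. Left are ChIP and right input libraries. FAD 2 is the highest ChIP library in all 9 families, and its input is the highest in 0 of them. All these regions had been called from the ChIP reads of a library labelled FAD, mostly FAD 2, which favours a high ChIP level there.

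Each of the 9 families had its highest ChIP level in FAD 2 at these shared regions. The choice of regions favours this, since all had been called in a library labelled FAD, mostly FAD 2, so it is a description only. The Cyp2 genes, the largest group with 53 regions, held 23.5 and 28.4 RPM in WT, 31.0 and 63.9 in FAD, and 28.4 and 25.8 in FAD-BIX. The Cyp4 genes, mostly fatty acid hydroxylases, held 3.92 and 4.85 in WT, 4.21 and 11.3 in FAD, and 3.86 and 4.18 in FAD-BIX. The library labelled FAD 1 lay within the WT range there. The Sult genes held 4.25 and 6.17 in WT, 4.97 and 14.6 in FAD, and 5.09 and 4.32 in FAD-BIX. The Serpinb genes, intracellular inhibitors of granzymes and cathepsins, held 2.78 and 3.54 in WT, 3.41 and 8.08 in FAD, and 2.45 and 3.68 in FAD-BIX. In the Cyp4, Sult and Serpinb groups the WT and FAD-BIX ranges overlapped.

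The highest level of any member was at the Ugt1a locus, which encodes the enzymes that conjugate bilirubin, steroids and many drugs. Its 6 regions in the first table held 172 and 264 reads in WT, 229 in the library labelled FAD 1 with 359 in FAD 2. Its inputs were also high, at 152 and 134 reads in WT and 107 and 83 in FAD. Of these regions, 3 neighbours at the Ugt1a1 end of the locus (the first at chr1:88212344-88212813) carried most of the reads in ChIP and input alike. The log2 fold of the locus (FAD over WT) was 0.03 ± 0.24 (SE). With the second table's 5 regions it was -0.19 ± 0.21 for FAD-BIX over FAD, from 225 and 334 reads in FAD and 198 and 182 in FAD-BIX.

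Cyp2c29, a hepatic epoxygenase gene, was the highest of the Cyp2 genes in each table, at 106 and 144 reads in WT and 138 and 171 in FAD, with inputs of 104 and 80 in WT and 43 and 42 in FAD. Its level also came mostly from a pair of neighbouring regions (the first at chr19:39259800-39260209) with high input, which the table places in an intron of another, unnamed gene. Ugt3a1 held 50 and 106 reads in WT and 83 and 100 in FAD over 4 regions inside the gene. Serpini2, which encodes pancpin, held 58 and 67 reads in WT and 62 and 48 in FAD over 4 regions, of which 0 overlapped the gene. Sult2a4 held 32 and 48 in WT and 34 and 116 in FAD over 4 regions inside the gene. WT and FAD overlapped in unscaled reads for Ugt3a1, Serpini2 and Sult2a4. In TMM-scaled level Serpini2 did not overlap, at 8.48 and 8.56 log2 CPM in WT and 8.47 and 7.48 in FAD.

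The first comparison asks whether the mark at these genes differs between FAD and WT mice. No member passed the test, which missed most 2-fold changes in simulated counts. Of 90 members, 79 passed the filter on low counts and were tested with edgeR's quasi-likelihood test on the summed ChIP counts, scaled by TMM, with Benjamini-Hochberg adjustment over all 3649 genes tested. None of these genes (0%) had an adjusted p under 0.05, the smallest being 0.698, and DESeq2 called 1 gene that is no member. At an unadjusted p under 0.05, 2 members were higher in FAD, against 1.4% of all genes, and 3 were lower, against 3.34% of all. The median log2 fold of the tested members was -0.01, and that of all genes was -0.00.

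The TMM-scaled levels of FAD and WT did not overlap in 22 members. They were higher in FAD in 13 of 79 members, against 18.9% of all genes, and lower in 9, against 16.4%. These shares are near or under the background. Without the ChIP library labelled FAD 1, 90 members could be tested, 2 were higher at an unadjusted p under 0.05 (0.41% of all 4149 genes were) and 7 were lower (7.23% of all). The median of the members was then 0.05. Without FAD 2, 0 were higher (2.27% of all genes were) and 1 was lower of 84 (1.91% of all). After adjustment 1 of 90 members was lower without the library labelled FAD 1 (0.554% of all genes were lower and 0.0241% higher) and 0 of 84 were called without FAD 2 (0.28% higher and 0.0764% lower).

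**Figure D4:**
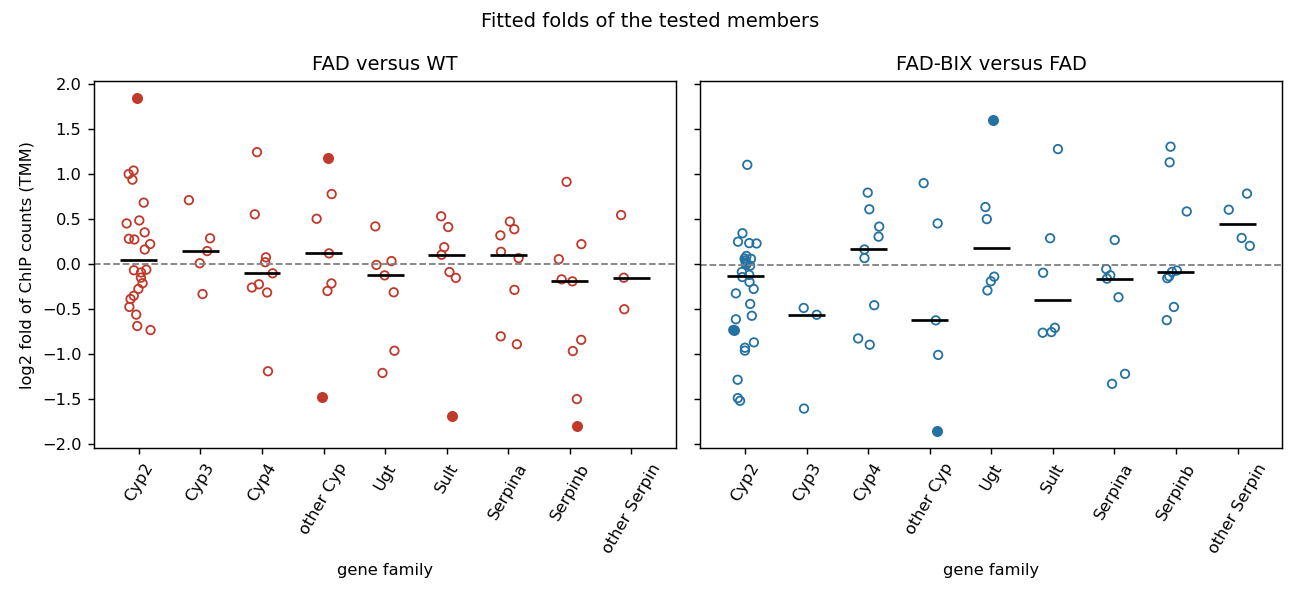
Fitted log2 folds of ChIP counts (vertical axis) of the tested members by gene family, for FAD over WT (left) and FAD-BIX over FAD (right). Each circle is a gene, filled where the unadjusted p was under 0.05, black lines are family medians and the grey dashed line is the median of all genes tested. None of the members passed after adjustment, and the points of each family lie on both sides of the dashed line except those of Cyp3 and of the other serpins on the right.

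By family, the Cyp2 genes had 12 folds above and 12 below 0 (median 0.05), the Cyp3 genes 4 and 1, the Cyp4 genes 4 and 5, and the other P450 genes 4 and 3. The Ugt genes had 2 above and 5 below (median -0.13), the Sult genes 4 and 3, the Serpina genes 5 and 3, the Serpinb genes 3 and 6 (median -0.19), and the other serpins 1 and 2. The direction of a member went with the group whose libraries had called its regions, which is a description, since calls and folds come from the same reads. Of 12 tested members called only in WT libraries, 12 had a fold below 0, with a median of -1.08. Of 50 called only in FAD libraries, 34 had a fold above 0, with a median of 0.20. Over all genes tested the pattern was alike, with 381 of 388 below 0 and 1481 of 1933 above.

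Cyp7b1, the oxysterol and neurosteroid hydroxylase, had the smallest p among the members. Its 3 regions, all in intron 1 (the first at chr3:18123139-18123437), held 54 and 41 reads in WT, 22 in the library labelled FAD 1 with 22 in FAD 2. Both libraries labelled FAD were below both WT libraries, and the inputs held 13 and 8 reads in WT and 6 and 11 in FAD. The log2 fold was -1.48 ± 0.42 (unadjusted p = 0.0052, adjusted p = 0.917, edgeR), and -1.85 without the library labelled FAD 1. As a ratio of ChIP to input the log2 fold was -1.07 (unadjusted p = 0.332, limma). All 3 regions had been called in WT libraries only.

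The other members with the smallest p for a lower level in FAD had the same kind of calls. Serpinb9d, of the granzyme B inhibitor group, held 15 and 46 reads in WT and 11 and 11 in FAD over 2 regions (log2 fold -1.80 ± 0.63, adjusted p = 0.917, edgeR; -2.18 without the library labelled FAD 1). Sult1b1, which conjugates thyroid hormones and phenols, held 24 and 46 in WT, 19 in the library labelled FAD 1 with 7 in FAD 2, over 3 regions inside the gene. Its log2 fold was -1.68 ± 0.65 (adjusted p = 0.917, edgeR). Sult1b1 was the only member to pass in any TMM-scaled fit without a single library: without the library labelled FAD 1 its log2 fold was -3.03 (adjusted p = 0.0251, edgeR), which then compares 1 FAD mouse with 2 WT mice and assumes that the lone mouse varies like the others. WT reads were above FAD reads for both genes, with a wide gap between the WT mice.

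Among members with a higher level in FAD, the lowest p values belonged to Cyp2d12, Cyp26a1 and Cyp2b23. Cyp2d12 had 1 region in intron 1, 222 bp from the listed start (chr15:82555201-82555476), with 2 and 4 reads in WT and 12 and 17 in FAD. Its log2 fold was 1.85 ± 0.80 (unadjusted p = 0.043, adjusted p = 0.917, edgeR), and 1.73 without the library labelled FAD 1. Cyp26a1, which degrades retinoic acid, held 9 and 16 reads in WT, 23 in the library labelled FAD 1 with 55 in FAD 2 over 2 intergenic regions (chr19:37840811-37841108 and chr19:37857939-37858555), 143151 and 160439 bp from the start they were listed with. Its log2 fold was 1.18 ± 0.52 (unadjusted p = 0.045, adjusted p = 0.917, edgeR), 1.39 without the library labelled FAD 1 and 0.84 without FAD 2. Cyp2b23, a P450 gene of the phenobarbital-inducible group, held 11 and 28 reads in WT and 30 and 72 in FAD, also over 2 intergenic regions (log2 fold 0.94 ± 0.48, adjusted p = 0.917, edgeR), with 1.15 without the library labelled FAD 1. In all 3 genes both libraries labelled FAD were above both WT libraries, and every region had been called in FAD 2 alone.

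**Figure D5:**
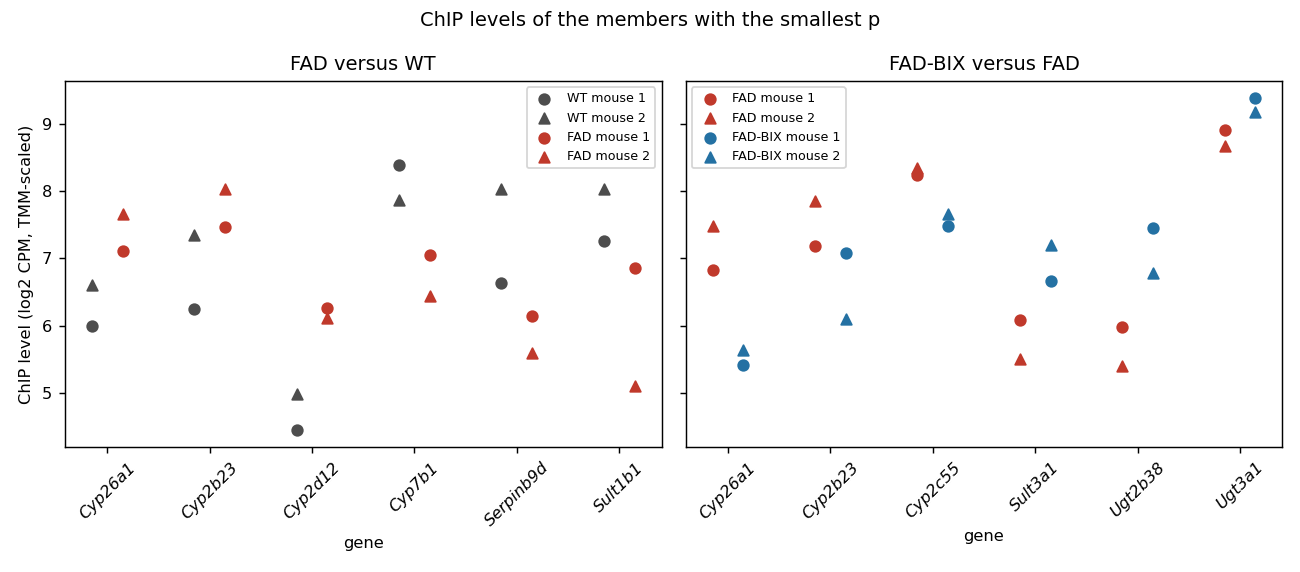
TMM-scaled ChIP level (vertical axis, log2 CPM) of those members whose p was smallest in each direction, per mouse. Left is FAD (red) and WT (grey), right FAD-BIX (blue) and FAD (red), with circles for mouse 1 and triangles for mouse 2. The groups do not overlap in any gene shown, which the choice by p favours. Over all genes tested they did not overlap in 18.9% (higher in FAD) and 16.4% (lower) on the left. On the right these shares were 16.8% (higher in FAD-BIX) and 18.5% (lower). No gene passed after adjustment (adjusted p = 0.917 on the left and 0.859 on the right, edgeR).

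The ratio of ChIP to input per mouse gave 0 members past the threshold by limma (0% of all genes, smallest adjusted p 0.353). At an unadjusted p under 0.05, 6 members were higher in FAD, against 7.92% of all genes, and 0 were lower, against 0.576%. The median log2 fold of this ratio was 0.81 for the members and 0.86 for all genes. Without the libraries labelled FAD 1 it was 1.53 and 1.44, and without FAD 2 and its input it was 0.05 for the members and 0.23 for all genes. The input libraries alone gave 0 of 16 tested members past the threshold (0.0781% of all genes, 1 gene higher in FAD) and 0 at an unadjusted p under 0.05 (2.89% of all genes were higher and 2.27% lower).

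Of 23 members listed as expressed in brain, 6 had a region in the FAD versus WT table. Of those given here besides Cyp7b1, none passed at an unadjusted p under 0.05. Cyp19a1, aromatase, held 20 and 11 reads in WT and 16 and 46 in FAD (log2 fold 0.50 ± 0.56). Cyp1b1, a P450 of oestrogens and of brain vessels, held 8 and 15 in WT and 23 and 28 in FAD (0.78 ± 0.57). Serpini1, neuroserpin, held 12 and 11 in WT, 20 in the library labelled FAD 1 with 4 in FAD 2 (-0.15 ± 0.86). The libraries labelled FAD lay on either side of WT for Serpini1, and its log2 fold was -2.22 without the library labelled FAD 1 and 0.75 without FAD 2. Cyp2j9, an epoxygenase of brain, held 20 and 25 in WT and 33 and 37 in FAD (0.27 ± 0.44). Without the library labelled FAD 1 the log2 folds of Cyp19a1, Cyp1b1 and Cyp2j9 were 0.81, 0.54 and -0.03.

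The second comparison asks what differs after EHMT1/2 inhibition. Again no member passed. Of 105 members, 79 passed the filter and were tested among 3990 genes, of which 0% had an adjusted p under 0.05 (smallest 0.341, edgeR), and DESeq2 also called 0. At an unadjusted p under 0.05, 1 member was higher in FAD-BIX, against 2.91% of all genes, and 2 were lower, against 1.95%. The median log2 fold of the tested members was -0.12, and that of all genes was -0.01.

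The groups' TMM-scaled levels did not overlap in 34 members. They were higher in FAD-BIX in 12 of 79, against 16.8% of all genes, and lower in 22 (27.8%), against 18.5%. The lower members included 11 of the 30 tested Cyp2 genes, most of them with regions called only in libraries labelled FAD. FAD 2 called 59.2% of member regions against 48.8% of all regions with a symbol. Calls and levels come from the same reads, so these shares of lower members are a description only. Without the ChIP library labelled FAD 1, 5 of 103 members were higher at an unadjusted p under 0.05 (4.77% of all genes were) and 3 were lower (0.664% of all), with 0 past the threshold (0.343% of all genes were higher after adjustment). Without FAD 2, 0 members were higher (0.859% of all) and 0 lower (1.81% of all) of 92, and 0 passed after adjustment (0.0226% of all higher and 0.475% lower). The median of the members was -0.17 without the library labelled FAD 1, against 0.04 for all genes, and 0.04 without FAD 2, against 0.06 for all genes.

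Families were described by their signs and medians, and no difference between families was tested. The Cyp2 genes had 10 folds above and 20 below 0 (median -0.13), the Cyp3 genes 0 above and 3 below (median -0.56), the Cyp4 genes 6 and 3, and the other P450 genes 2 and 3. The Ugt genes had 3 and 3, the Sult genes 2 and 4, the Serpina genes 1 and 6 (median -0.16), the Serpinb genes 3 and 6, and the other serpins 4 above and 0 below (median 0.45). Calls and direction again went together. Of 34 tested members called only in FAD libraries, 31 had a fold below 0 (median -0.72), and of 17 called only in FAD-BIX libraries, 13 had one above 0 (median 0.42). The 28 members called in both groups, 15 above and 13 below 0, had a median of 0.06. Over all genes, 1216 of 1385, and 628 of 690, had the same signs.

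Cyp26a1 had the smallest p. The same 2 intergenic regions held 23 reads in the library labelled FAD 1, 55 in FAD 2, and 7 and 9 in FAD-BIX, against 9 and 16 in WT. Both FAD-BIX libraries were below both libraries labelled FAD. Scaled to library totals, they held 0.34 and 0.41 RPM, against 0.37 and 0.60 in WT and 0.92 and 2.64 in FAD, so that FAD-BIX and WT overlapped. Inputs held 4 and 4 reads in FAD against 8 and 5 in FAD-BIX. The log2 fold was -1.86 ± 0.61 (unadjusted p = 0.0063, adjusted p = 0.859, edgeR), -2.13 without the library labelled FAD 1 and -1.47 without FAD 2. By ratio of ChIP to input it was -2.53 (unadjusted p = 0.061, limma).

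The next smallest p values for a lower level in FAD-BIX were those of Cyp2c55 and Cyp2b23. Cyp2c55, a P450 that makes hydroxylated arachidonic acid, held 64 and 102 reads in FAD against 35 and 42 in FAD-BIX over 3 regions, 2 of them inside the gene (log2 fold -0.74 ± 0.33, unadjusted p = 0.037, adjusted p = 0.859, edgeR), with -0.77 without the library labelled FAD 1. In the same regions WT held 44 and 54. Cyp2b23 held 30 and 72 in FAD and 26 and 13 in FAD-BIX (log2 fold -0.96 ± 0.48, adjusted p = 0.859, edgeR), with -1.23 without that library. FAD-BIX lay below FAD in TMM-scaled level in both genes. Scaled to library totals, Cyp2b23 held 1.20 and 3.46 RPM in FAD against 1.27 and 0.59 in FAD-BIX, so that the groups overlapped. The FAD libraries are shared by both comparisons, so the folds of a gene in the first and in the second are not independent.

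For a higher level in FAD-BIX the lowest p values were those of conjugating enzymes. Ugt2b38, a glucuronosyltransferase gene of the steroid-conjugating Ugt2b group, held 12 and 11 reads in FAD against 34 and 22 in FAD-BIX (log2 fold 1.60 ± 0.61, unadjusted p = 0.016, adjusted p = 0.859, edgeR). Sult3a1, which conjugates amines, held 13 and 12 in FAD and 19 and 30 in FAD-BIX (log2 fold 1.28 ± 0.63, adjusted p = 0.859, edgeR). Ugt3a1 held 103 and 129 in FAD and 135 and 123 in FAD-BIX over 6 regions (log2 fold 0.50 ± 0.25, adjusted p = 0.859, edgeR). Without the library labelled FAD 1 the log2 folds of Ugt2b38, Sult3a1 and Ugt3a1 were 1.98, 1.65 and 0.64. The FAD-BIX libraries were above those labelled FAD in TMM-scaled level in each, while the unscaled reads of Ugt3a1 overlapped. The regions of Ugt2b38 and Sult3a1 had been called in FAD-BIX libraries only.

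Cyp7b1 held 22 and 29 reads in FAD against 52 and 22 in FAD-BIX in the second (log2 fold 0.90 ± 0.49, adjusted p = 0.859, edgeR). These were 3 other regions, 2 in intron 1 and 1 intergenic, all called in FAD-BIX 1 only, so the values of the tables do not describe the same sequence. Its log2 fold was 1.00 without the library labelled FAD 1 and 0.11 without FAD-BIX 1. Of the other brain-listed members, Cyp19a1 held 16 and 46 in FAD and 4 and 19 in FAD-BIX (-1.01 ± 0.68), and Cyp1b1 held 23 and 28 in FAD and 13 and 13 in FAD-BIX (-0.63 ± 0.61). Serpine2, protease nexin 1, had regions in this table only, with 20 and 12 reads in FAD and 11 and 35 in FAD-BIX (0.78 ± 0.66). Serpini1 held 23 and 11 in FAD and 12 and 21 in FAD-BIX (0.20 ± 0.69), and Cyp2j9 held 38 and 42 in FAD and 40 and 17 in FAD-BIX (-0.14 ± 0.47). Without the library labelled FAD 1 the log2 folds of Cyp19a1, Cyp1b1, Serpine2, Serpini1 and Cyp2j9 were -1.37, -0.46, 1.55, 1.20 and 0.09.

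The ratio of ChIP to input gave 0 members past the threshold in this comparison (0% of all genes, smallest adjusted p 0.757, limma). At an unadjusted p under 0.05, 2 were higher, against 1.38% of all genes, and 2 were lower, against 3.51%. The median was -0.48 for the members and -0.30 for all genes, -1.20 and -0.77 without the libraries labelled FAD 1, and 0.43 and 0.24 without FAD 2 and its input. The inputs gave 0 of 11 tested members, and 0 at an unadjusted p under 0.05 (1.21% of all genes were higher and 2.17% lower).

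Scaling moved these counts. TMM removes a difference shared by most regions, whereas scaling to library totals keeps it and moves the median log2 fold of all genes to 0.60 for FAD over WT and to -0.30 for FAD-BIX over FAD. The members moved with it, to 0.58 and -0.41. With library totals and without the library labelled FAD 1, 12 of 90 members passed as higher in FAD, against 13.6% of all genes (0.241% lower), and 5 of 103 passed as lower in FAD-BIX, against 1.82% (0.0642% higher). Those lower in FAD-BIX were Cyp26a1, Cyp2b23, Cyp2d37-ps, Sult2a4 and Ugt1a, and all of them were also among those higher in FAD. These fits rest on FAD 2 as the only FAD mouse. A high level in that 1 library favours a place in both lists, so their overlap is no separate result.

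Genes of the same pathways outside the member families were read from the same fits. Partners in detoxification, mainly flavin monooxygenases, glutathione transferases, carboxylesterases, alcohol and aldehyde dehydrogenases and carriers, had regions in 26 genes of the first table. Of 20 tested, 1 was higher in FAD (1.4% of all genes were) and 0 were lower (3.34% of all) at an unadjusted p under 0.05, with a median log2 fold of -0.15. For FAD-BIX versus FAD, 27 of 32 were tested, with 0 higher and 0 lower and a median of 0.19. Serine proteases and receptors met by serpins had regions in 26 and 29 genes. Of 24 tested in the first table, 0 were higher and 0 lower (median 0.09). Of 22 in the second, 2 were higher (2.91% of all genes were) and 0 lower (1.95% of all) in FAD-BIX (median -0.23).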

How the data were processed

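H3K9me2 ChIP and input libraries of 6 mice were used (2 per group, separate mice per the labels). The submitters' processing notes name BWA 0.7.12 and MACS2 2.1.0, with FastQC and Trimmomatic. Per the file headers, the 2 deposited tables give the read count of each library in each region and which library each region was called in. RPM in the deposited tables equals the count plus 1, scaled to the library total, and that total was taken from it. The authors' deposited fold (a ratio of ChIP to input RPM), log2 fold change, p-value and q-value columns were read but not used for any result, except that every deposited q-value was 1.

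Rows were reduced to 1 per region, preferring a row with a member gene, then an overlapping gene. The notes name mm9, but 97.6% and 97.8% of the regions listed as overlapping a gene lay in that gene in RefSeq GRCm38.p6 (79 of 79 and 92 of 92 member regions), so coordinates are given as GRCm38. The sources used here do not say if starts count from 0 or 1.

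The test of ChIP counts per gene was edgeR's quasi-likelihood test (version 4.0.16, R 4.3.3; TMM, default filter, no replicate block, Benjamini-Hochberg over all autosomal genes, threshold 0.05). SEs were taken as |log2 fold| divided by the root of F. Inputs were tested likewise, and the log2 ratio of ChIP to input per mouse (pseudocount 1 read) with limma 3.58.1 with trend. Library totals were 13.92 to 26.58 M reads. The edgeR fit was tested on simulated counts in which 50 genes were changed by each known fold. It recovered 12% of 2-fold changes for FAD versus WT and 4% for FAD-BIX versus FAD. At 4-fold it recovered 62% and 58%, and at 16-fold 92% and 96%. Of the unchanged genes, 8 and 6 were called. Most 2-fold changes were thus missed.

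Alternatives were DESeq2 1.42.0 and its size factors, library totals, no filter, a replicate block, each library left out, overlapping genes only, regions of at least 500 bp or called in at least 2 libraries, single regions, a pseudocount of 5 and an edgeR interaction model. The genes named are, in each table, those with the 2 highest levels in each family, those with the 3 smallest p in each direction, and those listed as expressed in brain, of which a selection is given; 1 member is not reported here. Regions, promoters and genes named for their calls, width or position were chosen after their values were seen. The members and lists were chosen with earlier results of these data known. The marker lists of the other brain cell types had too few regions to describe: of 6 astrocyte, 5 oligodendrocyte, 5 microglia and 4 endothelial genes, 1, 1, 0 and 2 had a region in the first and 1, 0, 0 and 2 in the second table. Of 10 neuronal marker genes 6 had a region in each table.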

Additional observations from a re-analysis of the deposited data

How the results depend on the processing

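The counts of genes past the threshold moved with scaling and with single libraries, while the count of members stayed at 0 except where stated. For FAD versus WT, 0 genes passed, and 1 by DESeq2, 2 with library totals, 2 with the replicate block and 1 with overlapping genes only. Leaving out 1 ChIP library gave 0 to 575 genes and 0 to 12 members. The largest of these, 575, was without the library labelled FAD 1 with library totals (13 without FAD 2), against 24, 14 and 19 with TMM without the library labelled FAD 1, FAD 2 and WT 2. For FAD-BIX versus FAD, 0 passed, and 3 with library totals, 12 with no filter and 6 with the replicate block. Leaving out 1 ChIP library gave 0 to 88 genes and 0 to 5 members, with 16 and 22 without the FAD libraries and 88 and 14 with library totals. For the inputs, leaving out 1 library gave 1 to 10 genes in the first and 0 to 4 in the second comparison.

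Replicate numbers name mice only. Same-numbered ChIP libraries correlated at 0.08 and -0.03 in their deviations from the group means, so the block is given as a setting only.

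Of the alternative values of the members named by p or brain listing, 108 kept direction and side of the threshold for FAD over WT and 137 for FAD-BIX over FAD, 4 and 2 newly passed, and 6 and 7 changed sign. For FAD over WT, leaving out 1 ChIP library gave -0.0039 to 1.05 for Cyp19a1, -0.025 to 0.52 for Cyp2j9 and -2.22 to 0.75 for Serpini1 (0.82 without FAD 2 with library totals). Library totals gave 0.15 for Serpini1, and regions of at least 500 bp gave -0.0041 for Cyp2j9. For FAD-BIX over FAD, leaving out 1 ChIP library gave -0.93 to 0.39 for Cyp2j9, -0.21 to 1.55 for Serpine2 and -0.44 to 1.20 for Serpini1 (-0.25 without FAD 2 with library totals). Cyp2j9 was 0.09 without the library labelled FAD 1, and Serpini1 was -0.19 without FAD-BIX 2. Library totals without the library labelled FAD 1 gave -0.025 for Ugt3a1. The cause was not tested. Median reads per member region were 9 to 20 in ChIP and 2 to 5 in input libraries, which limits every single gene.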

Other observations

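For FAD versus WT, 11 members were filtered out, 5 of them Cyp2, 3 Cyp4 and 3 Serpinb genes. For FAD-BIX versus FAD, 26 were filtered out, among them 5 Cyp4, 5 Sult and 4 Serpinb genes. Cyp2c37, a hepatic P450 gene, had the most regions of any member in the second table, 9, with 91 and 151 reads in FAD against 97 and 122 in FAD-BIX. Serpini2 had 7, with 68 and 74 reads in FAD against 99 and 72 in FAD-BIX (log2 fold 0.60 ± 0.31, adjusted p = 0.859, edgeR). Sult2a4 had 34 and 116 reads in FAD against 36 and 29 in FAD-BIX over the same 4 regions in both tables, so that the library labelled FAD 1 lay with the FAD-BIX mice and apart from FAD 2.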
